A study of Mus musculus with 21 samples.

Results

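The comparison set Etv2-tdTomato+ cells against Etv2-tdTomato- cells within the PDGFRalpha-FLK1+ gate of mouse embryoid bodies. It holds 6 of the 21 RNA samples of the series, chosen by their labels: 3 Etv2-tdTomato+ and 3 Etv2-tdTomato- samples, called Etv2-positive and Etv2-negative here. All 6 came from day 4 embryoid bodies, aggregates in which mouse embryonic stem cells differentiate, and the stem cell line held 2 fluorescent reporters, GFP for T (Brachyury) and tdTomato for Etv2. No doxycycline is stated for this line. The stem cells had been kept on irradiated mouse embryonic fibroblast feeders and then without feeders before differentiation. The same line gave 6 further samples from the PDGFRalpha+FLK1+ gate, 3 for each reporter state, and these were used to ask whether the reporter difference depended on the gate. A second set held 3 PDGFRalpha-FLK1+ samples of the wildtype line A2lox.Cre and 3 of a line with doxycycline-inducible Etv2 (iEtv2), given 2 µg per ml doxycycline from day 2.5, with 3 wildtype PDGFRalpha+FLK1+ samples fitted beside them. The labels describe 1 reporter line, do not say whether GFP was also gated, and do not say that replicates were separate cultures. The p-values therefore measure the spread between these samples, which may be technical. The reporter shows tdTomato protein, which reports on Etv2 expression but is not Etv2 itself. In sorted bulk RNA, fewer cells of a type and less RNA per cell cannot be told apart.

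FLK1, the product of Kdr, is the main receptor for VEGF and is carried by mesoderm that can form blood, vessels and heart. PDGFRalpha is lost as FLK1+ mesoderm moves toward blood and endothelium, and kept in paraxial and cardiac mesoderm. Etv2 is an ETS transcription factor that FLK1+ mesoderm expresses for a short time and that embryos need to make endothelium and blood. Among the genes known to act downstream of it are the partner factors Tal1, Lmo2 and Gata2, the ETS factors Fli1 and Erg, and the endothelial receptors Tek and Kdr.

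Total counts on genes were 25045553 to 32777143 in the 12 reporter-line samples, and levels are given as CPM, counts scaled to a common library size after TMM normalization. Ribosomal RNA took 1.4% of the counts in Etv2-negative replicate 2 and 1.28% in Etv2-positive replicate 3, and 0.212 to 0.432% in the other 4 samples of the gate. Within a group, samples had Pearson correlations across genes between 0.9911 and 0.9943. Pseudogenes took 12.2 to 14.4% of the counts in the 12 samples, so the CPM of a gene with close copies may be split with them. Both samples of high ribosomal RNA share were also left out together, and a change of call is given where it matters.

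The sorting label was checked first. The Etv2 gene lies on the minus strand of chromosome 7 in mm10, from 30633616 to 30635852, and its RNA was measured at 27.7, 26.5 and 25.6 CPM in the Etv2-negative samples and 79.6, 109 and 78.7 CPM in the Etv2-positive samples. The groups did not overlap, and the difference was 3.34-fold (log2 change 1.74 ± 0.14, adjusted p = 1.44e-05, edgeR quasi-likelihood test with Benjamini-Hochberg adjustment, as for every gene below). Etv2 RNA was thus present in the Etv2-negative cells too, at 25.4 CPM per kb of exon, above every other ETS gene of the list below on that scale. Kdr, which every sorted cell should carry, stood at 521, 543 and 514 CPM in the Etv2-negative samples and 600, 631 and 580 CPM in the Etv2-positive samples, and its difference did not pass the test (log2 change 0.20 ± 0.12, adjusted p = 0.241), although it did when only these 6 samples were fitted (adjusted p = 0.0197, and 0.00207 with the replicate block added). Pdgfra, selected against, was listed at 53.8, 59.7 and 41.6 CPM in the Etv2-negative samples and 39, 47.6 and 25.8 CPM in the Etv2-positive samples (log2 change -0.47 ± 0.20, adjusted p = 0.0999), beside means of 253 and 150 CPM in the Etv2-negative and Etv2-positive cells of the PDGFRalpha+FLK1+ gate. With the replicate number as a block, its decrease passed the test (adjusted p = 0.0155). The nascent mesoderm gene T, the other reporter locus, stood at 68.8, 79.4 and 39 CPM in the Etv2-negative samples and 57.9, 62.5 and 39.7 CPM in the Etv2-positive samples, with groups that overlapped (log2 change -0.23 ± 0.30, adjusted p = 0.618). With the replicate block and the 6 samples alone, T was called lower (adjusted p = 0.0405).

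Of 17690 genes tested, 4504 (25.5%) were called at an adjusted p below 0.05. Higher levels in Etv2-positive cells were called for 2314 genes (13.1%) and lower levels for 2190 (12.4%). These shares are the background for every list below. The lists were chosen with earlier results of these data known, so a count above this background is not independent support. Some genes stand in several lists and are counted in each. Of the 4504 called genes, 4425 (98.2%) had groups that did not overlap, so separate groups are usual for a called gene. The median log2 change was 0.35 over the genes called higher and -0.60 over those called lower, beside -0.01 over all genes, so most changes were small. A difference of at least 2-fold was reached by 322 genes called higher and 583 called lower, and one of at least 4-fold by 95 and 93. With upper-quartile scaling the calls were 1800 higher and 2653 lower, and the median of all genes moved to -0.05. Without both samples of high ribosomal RNA, 2459 genes were called. Among the 322 genes at least 2-fold higher, Etv2-positive replicate 3 was the highest of its group for 225 (69.9%) and Etv2-negative replicate 3 for 165 (51.2%). Etv2-positive replicate 3 held 1.28% ribosomal RNA, and the part this had in the result was not tested beyond the counts without it.

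**Figure D1:**
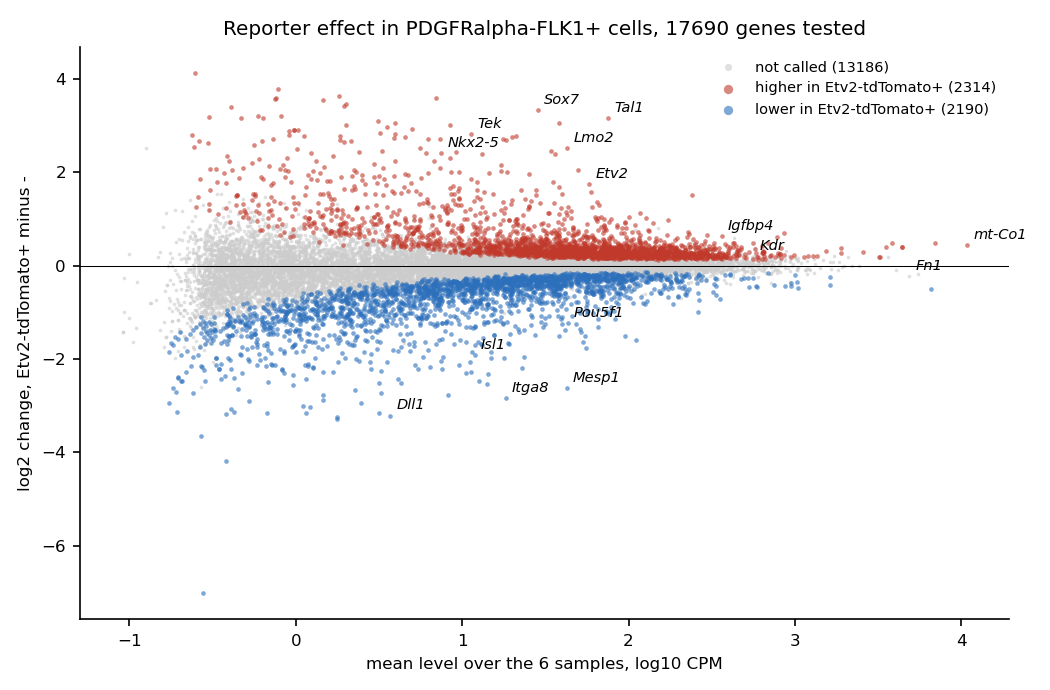
Each point is 1 of 17690 genes, with its mean level over the 6 samples (log10 CPM) on the x axis and the log2 change, Etv2-positive minus Etv2-negative, on the y axis. Red marks 2314 genes called higher and blue 2190 called lower at an adjusted p below 0.05. Tal1, Sox7 and Lmo2 lie far above the main cloud and Mesp1 and Itga8 far below it, while the most abundant genes lie near 0.

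The 15 largest increases, drawn from called genes whose 6 samples averaged 5 CPM or more, included 5 regulators of blood and endothelial fate: Sox7, Tal1, Cbfa2t3, Lmo2 and Ikzf1. Sox7, a SoxF factor of early endothelium and blood precursors (ENSMUSG00000063060, chromosome 14), stood at 2.8, 6.18 and 6.45 CPM in the Etv2-negative samples and 40.4, 48.7 and 66.8 CPM in the Etv2-positive samples (log2 change 3.33 ± 0.31, adjusted p = 2.87e-05). Tal1, the basic helix-loop-helix factor that starts the blood program, stood at 8.25, 16.9 and 20.4 CPM in the Etv2-negative samples and 97.7, 115 and 194 CPM in the Etv2-positive samples (log2 change 3.16 ± 0.32, adjusted p = 3.88e-05). Every Etv2-positive sample exceeded every Etv2-negative sample for both genes. Cbfa2t3, a corepressor that binds Tal1 complexes, rose from 5.27, 8.22 and 10.9 CPM to 51.7, 54.6 and 98.3 CPM (log2 change 3.06 ± 0.30, adjusted p = 3.31e-05). Lmo2, the adaptor that bridges Tal1 and GATA factors, rose from 7.64, 16.5 and 13.8 CPM to 55, 75 and 88.6 CPM (log2 change 2.52 ± 0.22, adjusted p = 1.89e-05). Tek encodes the angiopoietin receptor TIE2, and its levels were 1.54, 2.89 and 3.96 CPM in the Etv2-negative samples and 13.3, 14.7 and 31.6 CPM in the Etv2-positive samples (log2 change 2.82 ± 0.45, adjusted p = 8.96e-04). Ikzf1, the lymphoid and blood regulator Ikaros, went from 0.861, 1.56 and 3.48 CPM to 7.92, 8.08 and 22.5 CPM (log2 change 2.70 ± 0.48, adjusted p = 0.00161). For these 6 genes Etv2-positive replicate 3 was the highest sample. The other members of the 15 largest increases were Slc32a1, Scube2, Wnk4, Slc1a3, Itga2b, Hapln1, Tnfaip2, Asic4 and Clic6, with log2 changes from 2.47 (Clic6) to 3.60 (Slc32a1). Slc32a1 carries GABA and glycine into synaptic vesicles, Slc1a3 is a glutamate transporter, Wnk4 is a kinase that controls ion transport, and Hapln1 links hyaluronan to proteoglycans. Scube2, a secreted protein that helps release Hedgehog ligands, stood at 1.58, 2.21 and 1.77 CPM in the Etv2-negative samples and 12, 13.1 and 20.2 CPM in the Etv2-positive samples (log2 change 3.02 ± 0.26, adjusted p = 1.66e-05). Slc32a1 had 76.4% of 50-base windows that occur in no other gene and overlaps an exon on the other strand over 24.9% of its length, and Asic4 88.5% and 18.1%, so part of their counts may belong to neighbours or copies.

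**Figure D2:**
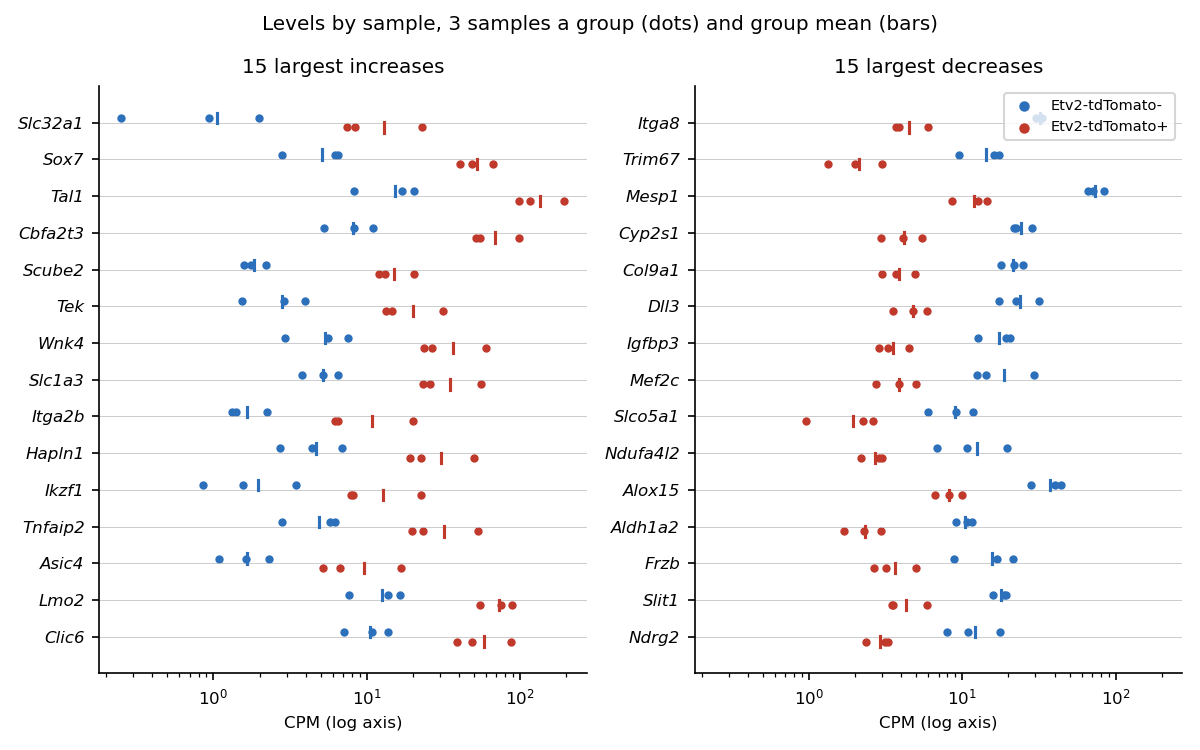
Levels (CPM, log axis) of the 15 largest increases on the left and the 15 largest decreases on the right, ordered by log2 change. Each dot is 1 sample and each bar a group mean over 3 samples, blue for Etv2-negative and red for Etv2-positive. The 2 groups do not overlap for any of the 30 genes, which was part of the rule that chose them.

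Promoter sequence was looked up in RefSeq for GRCm38.p6, the build of the counts, since these genes moved together with an ETS factor. The core CCGGAAGT, searched on both strands in the 250 bases before the start, was in none of the windows of the 11 of 15 largest increases that had an entry. It was in the windows of 1 of 224 genes (0.446%) called at least 2-fold higher and of 4 of 409 (0.978%) called at least 2-fold lower, against 6.42% of the 11226 genes tested that had an entry. Over all called genes, whatever the size of the change, it was in 6.44% of 1614 called higher and 3.65% of 1507 called lower. No match says only that these letters are not in these windows. The bare core GGAA, chosen afterwards, is common: 76.3% of tested genes held it or its reverse TTCC in the 120 bases before the start, with a mean of 1.53 matches, and 76.3% of the genes at least 2-fold higher held it too (mean 1.46). Of the other letters searched in the same 120 bases, GATAA was in 6.9% of tested genes, 14.7% of those at least 2-fold higher and 9.05% of those at least 2-fold lower, and CANNTG in 36.1%, 39.7% and 41.6%. Over all 27025 genes with an entry, tested or not, GATAA was in 12.2% and CANNTG in 43.8%. The 250-base windows of 3.23% of these genes held CCGGAAGT. Whether any of these shares differ was not tested. Stretches that overlap no annotated exon are shown for Tal1 (chr4:115057691-115057810, plus strand), Tek (chr4:94739169-94739288, plus strand) and a second start of Ikzf1 (chr11:11690057-11690176, plus strand). They were chosen after their letters were seen, as 3 of the windows with 2 or more matches. They are written 5′ to 3′ with GGAA or TTCC in capitals.
Tal1: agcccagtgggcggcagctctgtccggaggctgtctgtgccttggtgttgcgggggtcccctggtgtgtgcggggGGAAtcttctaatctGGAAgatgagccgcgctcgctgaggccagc
Tek: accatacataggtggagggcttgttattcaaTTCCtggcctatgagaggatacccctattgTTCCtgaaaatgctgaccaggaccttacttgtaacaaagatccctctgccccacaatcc
Ikzf1: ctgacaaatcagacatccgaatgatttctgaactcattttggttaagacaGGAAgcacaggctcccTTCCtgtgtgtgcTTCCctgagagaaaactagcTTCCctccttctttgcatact
The window of Tal1 holds 2 matches, that of Tek 2 and that of Ikzf1 4, and the other annotated start of Ikzf1 held 0.

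The factors that build the Tal1 complex include blood-specific members and partners that most cells express. Of 9 members tested, 6 rose, none was called lower, and the median log2 change was 2.06. Lyl1, the close relative of Tal1, rose from 0.502, 1.24 and 1.74 CPM to 5.27, 6.56 and 14.7 CPM (log2 change 2.92 ± 0.40, adjusted p = 3.35e-04). Gata1, the erythroid and megakaryocyte GATA factor, stayed low but went from 0.538, 0.65 and 1.4 CPM to 2.47, 1.97 and 6.34 CPM (log2 change 2.06 ± 0.46, adjusted p = 0.00651). Gata2, named after its values were seen as the sixth member called, rose from 13.4, 21.9 and 22.3 CPM to 63.8, 71.4 and 104 CPM (log2 change 2.05 ± 0.20, adjusted p = 3.28e-05). The E-protein partners Tcf3 and Tcf12 and the bridging protein Ldb1 were already abundant, and their changes were small: Ldb1 stood at 169, 170 and 195 CPM against 179, 180 and 194 CPM (log2 change 0.05 ± 0.07, adjusted p = 0.644), Tcf12 changed by 0.06 ± 0.08 and Tcf3 by -0.12 ± 0.06. Tcf3 was called lower with the block in the 6 samples alone (adjusted p = 0.03). The call of Gata1 ended without both samples of high ribosomal RNA (adjusted p = 0.0829).

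Other blood transcription factors act with or after the Tal1 complex. Of 13 tested, 9 rose, 1 fell and 3 were not called, with a median log2 change of 1.17. Gfi1b, a repressor of erythroid and megakaryocyte precursors, rose from 0.287, 0.618 and 1.43 CPM to 3.65, 2.97 and 10.3 CPM (log2 change 2.85 ± 0.56, adjusted p = 0.00309), and its relative Gfi1 from 0.287, 0.26 and 0.307 CPM to 1.29, 1.82 and 2.81 CPM (log2 change 2.78 ± 0.36, adjusted p = 2.15e-04). Myb, needed for definitive blood stem and progenitor cells, rose from 0.645, 1.82 and 3.31 CPM to 6.08, 6.56 and 18.2 CPM (log2 change 2.41 ± 0.47, adjusted p = 0.00287). Klf1, the erythroid Krüppel-like factor, stood at 0.179, 0.195 and 0.307 CPM in the Etv2-negative samples and 0.663, 0.853 and 3.67 CPM in the Etv2-positive samples (log2 change 2.92 ± 0.62, adjusted p = 0.005). For Klf1, Gfi1b, Myb and Ikzf1, Etv2-positive replicate 3 was more than 2 times the level of the other Etv2-positive samples. Runx1, named after its values were seen because definitive blood depends on it, rose from 37.7, 35.9 and 28 CPM to 64.2, 50 and 62.8 CPM (log2 change 0.80 ± 0.15, adjusted p = 0.00209). Meis1, a homeobox cofactor, went the other way, from 7.14, 6.76 and 11.2 CPM to 3.06, 4.71 and 3.77 CPM (log2 change -1.12 ± 0.25, adjusted p = 0.00607). Cbfb, the shared partner of the Runx proteins, was abundant, with 156, 172 and 153 CPM against 179, 175 and 183 CPM and an adjusted p of 0.0768 (0.0462 with the replicate block).

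The ETS genes of the list did not move as one. Of 18 members, 7 rose, 4 fell and 7 were not called, and the median log2 change was 0.04. Those that rose include Etv2, whose reporter was used to sort the groups. The vascular members Erg and Fli1 rose, Erg from 0.215, 0.618 and 0.887 CPM to 2.47, 2.71 and 5.96 CPM (log2 change 2.68 ± 0.41, adjusted p = 6.14e-04) and Fli1 from 3.33, 7.09 and 7.16 CPM to 16.5, 19.1 and 34.2 CPM (log2 change 1.98 ± 0.29, adjusted p = 5.16e-04). Elk3, which represses serum response targets in vessels, rose from 7.89, 10.9 and 10.6 CPM to 21.7, 27 and 27 CPM (log2 change 1.36 ± 0.14, adjusted p = 5.47e-05). The FGF-responsive members Etv1 and Etv5 fell, with log2 changes of -0.95 ± 0.12 (adjusted p = 1.86e-04) and -0.60 ± 0.11 (adjusted p = 0.0024), and 81.0 and 73.3% of their windows occur in no other gene. For the broadly expressed Gabpa the levels were 119, 115 and 109 CPM against 119, 115 and 109 CPM, a log2 change of 0.00 ± 0.06, and for Ets1 66.5, 86 and 74.2 CPM against 78.1, 81 and 118 CPM (adjusted p = 0.201). Per kb of exon, Etv2 had 84.9 CPM in the Etv2-positive cells and the next member, Gabpa, 20.1.

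Among SoxF factors and other endothelial regulators, 9 of 16 tested rose, 4 fell and 3 were not called, and the median log2 change was 0.78. Those that rose include Tal1, Lmo2 and Gata2, which were also counted with the Tal1 complex. Hhex, a homeobox factor of blood and endothelial precursors, rose from 4.55, 7.25 and 7.09 CPM to 19.4, 23.4 and 41.7 CPM (log2 change 2.16 ± 0.25, adjusted p = 1.03e-04). Of the genes that fell, Mef2c, a MADS box factor of heart and vessels, went from 12.5, 14.3 and 29.4 CPM to 2.73, 3.86 and 5 CPM (log2 change -2.27 ± 0.44, adjusted p = 0.00283), and Foxc1, a forkhead factor of paraxial and vascular mesoderm, from 2.22, 3.38 and 3.07 CPM to 1.14, 0.63 and 1.34 CPM (log2 change -1.47 ± 0.29, adjusted p = 0.00311). Mecom, Klf2 and Foxc2 stood at 4.49 CPM or less in every sample and were not called, with adjusted p values of 0.325, 0.205 and 0.171. With the replicate block, Mecom and Klf2 passed the test (adjusted p = 0.0153 and 0.0181). Foxc2 also passed without Etv2-positive replicate 1 (adjusted p = 0.0367). Without both samples of high ribosomal RNA, 7 rose and 2 fell.

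Receptors of endothelial cells bind the signals that shape vessels. Of 21 tested, 11 rose, 1 fell and 9 were not called, with a median log2 change of 1.05, and 8 rose without both samples of high ribosomal RNA. S1pr1, the receptor for sphingosine-1-phosphate, rose from 2.4, 2.34 and 3.04 CPM to 6.74, 9.35 and 7.67 CPM (log2 change 1.61 ± 0.18, adjusted p = 7.08e-05). Plxnd1, the semaphorin receptor of endothelium, rose from 42.6, 45.9 and 45.1 CPM to 81.5, 95.7 and 99 CPM (log2 change 1.05 ± 0.08, adjusted p = 1.33e-05). The thrombin receptor F2r was among the more abundant, with 109, 132 and 133 CPM in the Etv2-negative samples and 288, 318 and 469 CPM in the Etv2-positive samples (log2 change 1.52 ± 0.16, adjusted p = 4.56e-05). Ramp2, the partner of the adrenomedullin receptor, rose from 3.62, 5.2 and 5.76 CPM to 12.9, 15 and 25.2 CPM (log2 change 1.86 ± 0.26, adjusted p = 3.42e-04), but 26.6% of its windows occur in no other gene and it shares exon sequence with a neighbour on its own strand. Tie1, the second receptor of the Tie family, rose from 0.215, 0.52 and 0.887 CPM to 1.51, 1.45 and 5.41 CPM (log2 change 2.36 ± 0.56, adjusted p = 0.00884), a call that ended without both samples of high ribosomal RNA (adjusted p = 0.0927). The VEGF co-receptors Nrp1 and Nrp2 were not called (adjusted p = 0.34 and 0.185), and Nrp2 passed with the replicate block (adjusted p = 0.039) and Nrp1 with the block in the 6 samples alone (adjusted p = 0.032). Cxcr4, the chemokine receptor that gastrulating mesoderm carries, fell from 78.2, 70.8 and 64.3 CPM to 51.9, 41.9 and 31.8 CPM (log2 change -0.76 ± 0.16, adjusted p = 0.00474).

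Junction and surface genes of endothelium hold vessels together and face the blood. Of 19 tested, 10 rose, 1 fell and 8 were not called, and the median log2 change was 0.79. Cdh5, the endothelial cadherin, stood at 1.43, 3.12 and 3.99 CPM in the Etv2-negative samples and 11.3, 12.3 and 23.1 CPM in the Etv2-positive samples (log2 change 2.45 ± 0.37, adjusted p = 6.17e-04). Vwf, the von Willebrand clotting protein, rose from 0.825, 0.325 and 0.819 CPM to 5.01, 4.9 and 6.78 CPM (log2 change 3.09 ± 0.44, adjusted p = 4.21e-04), and Plvap, the diaphragm protein of fenestrated vessels, from 1.83, 1.69 and 2.01 CPM to 6.85, 6.42 and 8.26 CPM (log2 change 1.96 ± 0.15, adjusted p = 1.33e-05). Icam2, an adhesion receptor of endothelium, was close to the limit of detection, with 0, 0.13 and 0.0682 CPM in the Etv2-negative samples and 0.405, 0.593 and 1.27 CPM in the Etv2-positive samples (log2 change 3.41 ± 0.63, adjusted p = 0.00218). Podxl, an abundant sialomucin, was listed at 852, 660 and 854 CPM against 1080, 963 and 922 CPM and not called (adjusted p = 0.217, and 0.00499 with the block in the 6 samples alone). Cldn5, Emcn, Clec14a, Stab2 and Lyve1, junction or surface proteins of established vessels, were too low to be tested, and Mmrn1 had no count in the 6 samples. Of the small GTPase regulators of endothelium, 7 of 15 rose and 2 fell: Rhoj rose from 1.83, 3.22 and 2.52 CPM to 7.96, 9.98 and 12.1 CPM (log2 change 1.98 ± 0.19, adjusted p = 3.28e-05), and the Ras activator Rasgrp3 fell from 18.5, 21.3 and 15.2 CPM to 11.3, 9.64 and 8.15 CPM (log2 change -0.92 ± 0.16, adjusted p = 0.00135). Rasip1, which acts with Rap1 in vessel lumen formation, rose from 1.18, 1.27 and 1.77 CPM to 3.39, 4.08 and 6.89 CPM (log2 change 1.76 ± 0.25, adjusted p = 4.32e-04), with 65.2% of its windows found in no other gene.

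**Figure D3:**
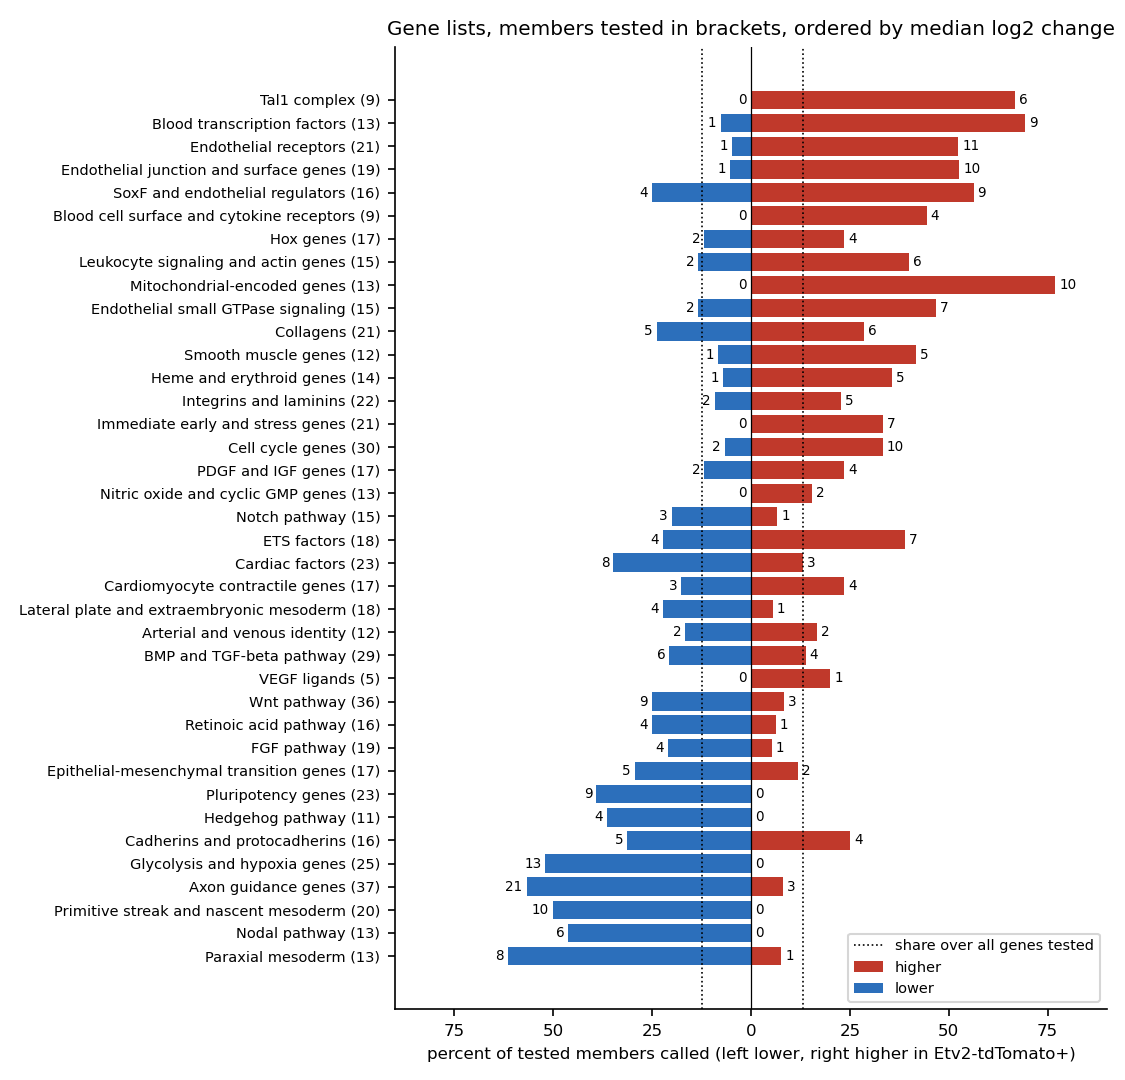
Share of the tested members of each of 38 lists called higher (red, to the right) or lower (blue, to the left) in Etv2-positive cells, with the number called beside each bar and the number tested in brackets. Dotted lines mark the shares over all 17690 genes, 13.1% higher and 12.4% lower. The lists are ordered by their median log2 change, from the Tal1 complex at the top to paraxial mesoderm at the bottom.

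Blood surface, leukocyte and erythroid lists held both low genes and genes that many cells express. Of 9 blood surface genes tested, 4 rose and none fell, and 2 rose without both samples of high ribosomal RNA or without Etv2-negative replicate 1, Etv2-negative replicate 3 or Etv2-positive replicate 3 alone. Itga2b, the integrin CD41 that marks the first blood precursors, stood at 1.33, 1.4 and 2.25 CPM in the Etv2-negative samples and 6.19, 6.49 and 19.9 CPM in the Etv2-positive samples (log2 change 2.71 ± 0.42, adjusted p = 7.31e-04). Kit, the stem cell factor receptor, was listed at 17.5, 14 and 19.4 CPM against 18.1, 21.6 and 30.4 CPM (adjusted p = 0.276, and 0.0475 with the replicate block). Ptprc, Csf1r, Csf3r and Flt3 were too low to test, and the platelet genes Gp1bb and Gp9 had no count in these samples. Of 15 leukocyte signaling and actin genes tested, 6 rose and 2 fell, and 4 and none did so without both of those samples. Lcp1, an actin-bundling protein of blood cells, rose from 9, 5.75 and 5.56 CPM to 26.6, 29.4 and 26.5 CPM (log2 change 2.02 ± 0.15, adjusted p = 1.33e-05). Vav3, an exchange factor for small GTPases, rose from 3.23, 5.27 and 4.71 CPM to 7.92, 8.97 and 15.1 CPM (log2 change 1.28 ± 0.25, adjusted p = 0.00301). Of 14 heme and erythroid genes tested, 5 rose, 1 fell and 8 were not called, and the median log2 change was 0.18. Alas2, the erythroid enzyme that opens heme synthesis, rose from 0.681, 0.39 and 1.47 CPM to 4.02, 4.75 and 12.4 CPM (log2 change 3.07 ± 0.49, adjusted p = 8.98e-04). The embryonic globin Hbb-bh1 stood at 0, 0.292 and 0.512 CPM in the Etv2-negative samples and 1.51, 1.93 and 6.71 CPM in the Etv2-positive samples (log2 change 3.63 ± 0.78, adjusted p = 0.00679), and its call ended with DESeq2 (adjusted p = 0.0703) and without both samples of high ribosomal RNA (adjusted p = 0.0517). Without those samples 1 of the heme and erythroid genes rose, and 3 rose without Etv2-negative replicate 2 or Etv2-positive replicate 1. Globins Hbb-y, Hba-x, Hba-a1 and Hba-a2 were too low to test.

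Markers of other cells that the gate could hold were counted the same way. The summed level of 8 mature endothelial markers was 27.0 to 42.6 CPM in the Etv2-negative and 69.2 to 134 CPM in the Etv2-positive samples, and 6 of 6 tested rose. For 8 erythroid markers the sums were 0.323 to 1.33 and 3.46 to 12.9 CPM, and 3 of 3 tested rose. These endothelial and erythroid markers all stand in the lists above too, so their counts repeat calls already counted there. Without both samples of high ribosomal RNA, 4 of the mature endothelial and 1 of the erythroid markers rose. For 12 myeloid and mast cell markers the sums were 3.92 to 6.24 and 5.90 to 6.65 CPM, with Adgre1, Elane, Mcpt4 and Cpa3 at 0 in the 6 samples. For 7 cardiomyocyte markers they were 33.4 to 44.6 and 33.0 to 54.5 CPM, for the 12 matched of 13 neuroectoderm markers 69.1 to 111 and 89.7 to 133 CPM (Olig3 at 0), and for 10 fibroblast markers of feeder cells 349 to 423 and 372 to 479 CPM (Lum and S100a4 at 0). Of those tested, 1 of 2 myeloid and mast cell, 1 of 5 neuroectoderm and 1 of 6 fibroblast markers rose. Called lower were 2 of the 5 neuroectoderm and 1 of 5 cardiomyocyte markers. The myeloid and cardiomyocyte calls ended without both samples of high ribosomal RNA, and 1 neuroectoderm marker then fell. Of the 17 endoderm markers, 15 were tested, 3 rose and 2 fell, and the sums were 422 to 485 and 620 to 651 CPM. The part of these cell types in the differences was not tested. The 2 endoderm markers that fell, Epcam and Cer1 (log2 change -0.87 and -1.98), also stand in other lists here, and such shared genes limit the reading. The endoderm sums did not overlap between the groups, and the largest log2 change among the tested endoderm markers was 3.2.

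The 15 largest decreases, chosen by the same rule, included genes of early mesoderm, of cell guidance and of the matrix. Itga8, an integrin of mesenchyme, stood at 33.2, 32.8 and 30.2 CPM in the Etv2-negative samples and 3.87, 6.01 and 3.67 CPM in the Etv2-positive samples (log2 change -2.83 ± 0.22, adjusted p = 1.33e-05), and the groups were far apart. Mesp1, the factor that marks the first cardiac and cranial mesoderm, fell from 70.6, 83.3 and 65.8 CPM to 12.7, 14.4 and 8.63 CPM (log2 change -2.62 ± 0.29, adjusted p = 6.62e-05). Trim67 (log2 change -2.77 ± 0.29), a ubiquitin ligase known from neurons, the cytochrome P450 gene Cyp2s1 (-2.54 ± 0.27) and the lipoxygenase gene Alox15 (-2.18 ± 0.17) also fell. Igfbp3, which binds insulin-like growth factors, fell from 20.4, 19.3 and 12.7 CPM to 3.28, 4.52 and 2.88 CPM (log2 change -2.30 ± 0.20, adjusted p = 1.66e-05). The remaining members of the 15 largest decreases were Col9a1, Dll3, Mef2c, Slco5a1, Ndufa4l2, Aldh1a2, Frzb, Slit1 and Ndrg2, with log2 changes from -2.48 (Col9a1) to -2.05 (Ndrg2).

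Paraxial mesoderm genes act in the segmentation of the trunk. Of 13 tested, 8 fell, 1 rose and 4 were not called, and the median log2 change was -2.18, and the same 8 to 1 counts were found without both samples of high ribosomal RNA. Msgn1, a factor of the presomitic mesoderm, fell from 4.23, 5.98 and 2.9 CPM to 0.479, 0.964 and 0.274 CPM (log2 change -2.94 ± 0.35, adjusted p = 1.27e-04). Tbx6, which directs cells to somites and away from the neural tube, fell from 5.99, 5.17 and 2.87 CPM to 1.18, 1.04 and 0.822 CPM (log2 change -2.20 ± 0.31, adjusted p = 3.58e-04). Mesp2, the segment boundary factor, fell from 2.76, 3.06 and 1.88 CPM to 0.295, 0.445 and 0.377 CPM (log2 change -2.77 ± 0.28, adjusted p = 4.56e-05). The Notch ligands of this tissue moved with them: Dll1 stood at 6.96, 8.58 and 4.54 CPM in the Etv2-negative samples and 0.553, 0.705 and 0.891 CPM in the Etv2-positive samples (log2 change -3.21 ± 0.31, adjusted p = 3.28e-05), and Dll3 fell from 22.4, 31.4 and 17.3 CPM to 4.75, 5.93 and 3.53 CPM (log2 change -2.33 ± 0.35, adjusted p = 5.45e-04). Pcdh8, a protocadherin of the segmenting mesoderm, fell from 5.7, 8.22 and 3.07 CPM to 0.553, 0.927 and 0.445 CPM (log2 change -3.15 ± 0.48, adjusted p = 6.39e-04). Aldh1a2, which makes retinoic acid in the trunk mesoderm, fell from 9.04, 10.8 and 11.6 CPM to 1.7, 2.93 and 2.3 CPM (log2 change -2.18 ± 0.23, adjusted p = 5.93e-05). Meox1, a somite homeobox gene, went the other way, from 1.29, 1.37 and 1.33 CPM to 2.69, 2.6 and 2.09 CPM (log2 change 0.88 ± 0.17, adjusted p = 0.00253). Over the whole Notch list the receptors did not follow the ligands: of 15 tested, 3 fell (Dll1, Dll3 and Jag1), 1 rose, and Notch2 and Notch3 were not called (adjusted p = 0.534 and 0.182). With the replicate block 5 of the Notch genes fell and 3 rose, and with the block in the 6 samples alone Notch3 was called lower (adjusted p = 0.0139). Nrarp, the 1 that rose, has 23.2% of its windows in no other gene.

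Primitive streak genes mark the site where mesoderm forms. Of 20 tested, none was called higher, 10 fell and the median log2 change was -0.92, and 7 fell without both samples of high ribosomal RNA. Fgf8, the FGF ligand of the streak, fell from 23.8, 31.9 and 14.4 CPM to 6.6, 9.01 and 3.94 CPM (log2 change -1.85 ± 0.35, adjusted p = 0.00232). Snai1, which represses cadherins as cells leave the epiblast, fell from 55.4, 60.6 and 48.5 CPM to 33.4, 31.8 and 21.6 CPM (log2 change -0.92 ± 0.18, adjusted p = 0.00292). Wnt8a, a streak Wnt ligand, fell from 1.72, 1.3 and 0.75 CPM to 0.368, 0.223 and 0.48 CPM (log2 change -1.79 ± 0.34, adjusted p = 0.00257). Eomes, a T-box factor of the streak, was listed at 255, 344 and 171 CPM against 228, 247 and 119 CPM and Mixl1 was listed at 85.2, 106 and 44.5 CPM against 79.9, 80.7 and 39.3 CPM, and neither passed the test (adjusted p = 0.475 and 0.693). In both, replicate 3 was the lowest sample of its group, and with the replicate block Eomes passed (adjusted p = 0.0147), as did Mixl1 with the block in the 6 samples alone (adjusted p = 0.0152). Nodal signaling patterns the streak, and only the RNA of its genes was measured here. Of 13 such genes tested, 6 fell and none rose, and 2 fell without both samples of high ribosomal RNA. Cfc1, a co-receptor for Nodal, fell from 60.1, 48.9 and 69.9 CPM to 25.4, 22.9 and 20.3 CPM (log2 change -1.38 ± 0.16, adjusted p = 1.22e-04), with 75% of its windows in no other gene. The signal carriers Smad2 and Foxh1 were not called (log2 change 0.10 ± 0.06 and 0.01 ± 0.07).

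Pluripotency genes hold the stem cell state that differentiation ends. Of 23 tested, 9 fell, none was called higher and 14 were not called, with a median log2 change of -0.29, and 5 fell without both samples of high ribosomal RNA. Pou5f1, which encodes OCT4, stood at 63.7, 71.7 and 46 CPM in the Etv2-negative samples and 28, 29.1 and 20.4 CPM in the Etv2-positive samples (log2 change -1.23 ± 0.23, adjusted p = 0.00219). Nanog fell from 21.1, 21 and 11.9 CPM to 7.04, 4.49 and 3.46 CPM (log2 change -1.85 ± 0.27, adjusted p = 4.60e-04) and Prdm14, which guards the naive state, from 3.76, 5.14 and 2.87 CPM to 0.737, 0.705 and 0.411 CPM (log2 change -2.67 ± 0.32, adjusted p = 1.44e-04). Lin28a, Dnmt3b and Trim71, which mark the early embryo more widely, were abundant and changed by 0.00 ± 0.07, 0.08 ± 0.06 and -0.08 ± 0.09, with no call.

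Cardiac factors moved in both directions. Of 23 tested, 8 fell, 3 rose and 12 were not called, and with the replicate block 5 rose. Nkx2-5, the homeobox factor of heart progenitors, stood at 2.37, 2.63 and 2.08 CPM in the Etv2-negative samples and 12.1, 13.3 and 12.5 CPM in the Etv2-positive samples (log2 change 2.42 ± 0.16, adjusted p = 4.61e-06). Tbx5, which marks the first heart field, rose from 4.48, 4.06 and 3.62 CPM to 13.2, 12.4 and 12.8 CPM (log2 change 1.66 ± 0.14, adjusted p = 1.44e-05). Isl1, which marks the second heart field, fell from 18.9, 18.7 and 18.8 CPM to 5.2, 5.27 and 4.56 CPM (log2 change -1.91 ± 0.09, adjusted p = 2.49e-07). These 3 genes had tight replicates and groups far apart. Irx5, an Iroquois factor, fell from 1.11, 1.11 and 0.75 CPM to 0.184, 0.26 and 0.274 CPM (log2 change -2.02 ± 0.32, adjusted p = 8.41e-04). Gata4 and Tbx20 were abundant and changed by -0.01 ± 0.13 and -0.00 ± 0.17. Contractile genes of cardiomyocytes were tested for 17 members, of which 4 rose and 3 fell, and 2 rose and 1 fell without both samples of high ribosomal RNA. Without Etv2-positive replicate 1, 2 rose. Tnnc1, the cardiac troponin C, rose from 9.86, 7.77 and 8.36 CPM to 15.4, 16.9 and 13.9 CPM (log2 change 0.83 ± 0.19, adjusted p = 0.00803), and the sodium-calcium exchanger Slc8a1 fell from 3.33, 4.16 and 2.76 CPM to 1.77, 1.78 and 1.34 CPM (log2 change -1.07 ± 0.20, adjusted p = 0.002). Myl2, Myh7, Nppa, Nppb and Pln of later heart muscle were too low to test. Of 12 smooth muscle genes, 5 rose and 1 fell, among them Myl9, a myosin light chain, from 19.2, 12.4 and 7.06 CPM to 44, 36.5 and 23.3 CPM (log2 change 1.43 ± 0.29, adjusted p = 0.00387), and Tagln from 12.4, 10.6 and 4.95 CPM to 20.9, 19.9 and 14.8 CPM (log2 change 0.99 ± 0.25, adjusted p = 0.0113), of which 52.3% of windows occur in no other gene.

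The lateral plate list held fewer changes. Of 18 tested, 4 fell, 1 rose and 13 were not called, and 2 fell without both samples of high ribosomal RNA. Foxf1, a forkhead factor of splanchnic mesoderm, fell from 233, 190 and 214 CPM to 167, 125 and 109 CPM (log2 change -0.67 ± 0.15, adjusted p = 0.00705), and Msx1, a BMP-responsive homeobox factor, from 276, 274 and 254 CPM to 195, 187 and 138 CPM (log2 change -0.63 ± 0.11, adjusted p = 0.00184). Bmp4, the ligand that starts ventral mesoderm, was listed at 196, 187 and 208 CPM against 187, 166 and 130 CPM (adjusted p = 0.207, and 0.034 with the block in the 6 samples alone), and Tbx3 was listed at 401, 369 and 300 CPM against 456, 404 and 294 CPM (adjusted p = 0.637).

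Guidance genes for axons and moving cells formed the list with the most members called lower by count, and it was also the list with the most members tested. Of 37 tested, 21 fell, 3 rose and 13 were not called, with a median log2 change of -0.55, and 15 fell without both samples of high ribosomal RNA. Slit1 encodes a repellent ligand, and it fell from 18.8, 19.4 and 15.8 CPM to 3.46, 5.93 and 3.53 CPM (log2 change -2.06 ± 0.24, adjusted p = 9.97e-05). Robo2, a receptor for Slit ligands, fell from 6.38, 7.02 and 9.18 CPM to 2.47, 2.34 and 1.61 CPM (log2 change -1.82 ± 0.34, adjusted p = 0.00227). Efna1, an ephrin ligand, fell from 28.2, 22.4 and 35.1 CPM to 11, 9.79 and 6.51 CPM (log2 change -1.65 ± 0.25, adjusted p = 5.84e-04). Ntn1, the diffusible guidance cue netrin, fell from 7.42, 6.99 and 2.49 CPM to 1.03, 0.853 and 0.651 CPM (log2 change -2.74 ± 0.59, adjusted p = 0.00507), a call that ended without both samples of high ribosomal RNA (adjusted p = 0.0549). The genes that rose included Plxnd1 and Plxnc1, receptors for semaphorins, and Plxnc1 went from 0.717, 1.17 and 1.23 CPM to 2.21, 2.3 and 5.76 CPM (log2 change 1.72 ± 0.35, adjusted p = 0.00398). Of the most abundant members, Plxna1 changed by -0.03 ± 0.09 and Plxnb2 by -0.14 ± 0.08, with no call. Arterial and venous genes gave 2 higher and 2 lower of 12 tested. Efnb2, the arterial ephrin, rose from 71.6, 78.1 and 83.3 CPM to 133, 137 and 158 CPM (log2 change 0.88 ± 0.11, adjusted p = 1.34e-04), and the connexin gene Gja4 from 0.179, 0.422 and 0.716 CPM to 1.66, 3.08 and 5.96 CPM (log2 change 3.0 ± 0.52, adjusted p = 0.0015). Ephb4, the venous receptor for Efnb2, was listed at 127, 128 and 146 CPM against 113, 122 and 121 CPM (adjusted p = 0.0843, 0.0386 with upper-quartile scaling and 0.0165 with the block in the 6 samples alone).

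Matrix and adhesion genes changed member by member. Of 21 collagens, 6 rose, 5 fell and 10 were not called, and 4 rose and 1 fell without both samples of high ribosomal RNA. Without Etv2-negative replicate 3, Etv2-positive replicate 2 or Etv2-positive replicate 3 alone, 3 fell. Col4a2, a chain of the basement membrane network, rose from 93.2, 95.1 and 102 CPM to 170, 181 and 200 CPM (log2 change 0.92 ± 0.09, adjusted p = 3.28e-05). Col14a1, a collagen that sits on fibrils, rose from 7.6, 8.22 and 8.05 CPM to 18.4, 18 and 16.1 CPM (log2 change 1.14 ± 0.12, adjusted p = 6.92e-05), and Col9a1, best known from cartilage, fell from 21.7, 17.8 and 25 CPM to 4.9, 3.67 and 3.01 CPM (log2 change -2.48 ± 0.26, adjusted p = 4.90e-05). Nid1, which joins laminin to collagen IV, rose from 46.7, 44.9 and 50.8 CPM to 90, 100 and 96.1 CPM (log2 change 1.01 ± 0.19, adjusted p = 0.00244). Of 22 integrin, laminin and related genes, 5 rose and 2 fell. Of these, 3 rose without both samples of high ribosomal RNA, and also without Etv2-negative replicate 1, Etv2-negative replicate 2 or Etv2-positive replicate 3. Among 16 cadherins and protocadherins, 4 rose and 5 fell. Pcdh12, an endothelial protocadherin, rose from 1.36, 1.46 and 0.682 CPM to 7.3, 9.49 and 6.85 CPM (log2 change 2.75 ± 0.26, adjusted p = 3.28e-05), while Pcdh19 fell from 4.23, 5.43 and 3.82 CPM to 1.25, 1.15 and 0.822 CPM (log2 change -2.07 ± 0.26, adjusted p = 1.90e-04). Of 17 genes of the epithelial to mesenchymal transition, 2 rose and 5 fell, and 1 and 2 did so without both samples of high ribosomal RNA. The count that fell was 2 without Etv2-negative replicate 1 and 3 without Etv2-negative replicate 2 or Etv2-positive replicate 3. Zeb2 rose from 73.7, 72.3 and 69 CPM to 112, 115 and 124 CPM (log2 change 0.70 ± 0.08, adjusted p = 1.36e-04), Epcam fell from 15.6, 17.1 and 14.9 CPM to 8.99, 8.97 and 8.09 CPM (log2 change -0.87 ± 0.12, adjusted p = 2.89e-04), and fibronectin (Fn1), the most abundant of the list, was not called at 5580, 5420 and 4720 CPM against 4670, 4760 and 3980 CPM (adjusted p = 0.212, and 0.0398 with the replicate block).

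Signaling pathways differed in how many members moved. Of 36 Wnt genes, 9 fell and 3 rose, and 15 fell with the replicate block. The secreted Wnt antagonists Sfrp1 and Frzb fell, Sfrp1 from 11, 12.9 and 12.4 CPM to 2.65, 3.26 and 3.49 CPM (log2 change -1.95 ± 0.20, adjusted p = 3.99e-05) and Frzb from 16.9, 21.3 and 8.77 CPM to 3.17, 5.01 and 2.67 CPM (log2 change -2.12 ± 0.39, adjusted p = 0.00206). The receptor gene Fzd10 rose from 15.1, 20.2 and 18.7 CPM to 44.9, 49.8 and 79.4 CPM (log2 change 1.69 ± 0.21, adjusted p = 1.49e-04) and the Wnt target Lgr5 from 9.54, 11 and 12.2 CPM to 27.5, 23.8 and 35.3 CPM (log2 change 1.40 ± 0.16, adjusted p = 8.02e-05). Nkd1 and Tcf7, which respond to canonical Wnt signaling, changed by 0.00 ± 0.11 and -0.08 ± 0.08 and were not called. Of 29 BMP and TGF-beta genes, 6 fell and 4 rose, and 3 fell without both samples of high ribosomal RNA or without Etv2-negative replicate 1. The BMP antagonist Nog fell from 6.2, 6.89 and 6.07 CPM to 1.81, 2.3 and 1.34 CPM (log2 change -1.82 ± 0.18, adjusted p = 3.31e-05), the ligand Bmp7 from 50.5, 43.6 and 60.4 CPM to 33.5, 34 and 26.4 CPM (log2 change -0.72 ± 0.14, adjusted p = 0.00334), and the co-receptor Tgfbr3 rose from 5.81, 5.33 and 6 CPM to 9.25, 11.8 and 21 CPM (log2 change 1.30 ± 0.25, adjusted p = 0.00267). Of 19 FGF genes, 4 fell and 1 rose. The 4 dropped to 2 without both samples of high ribosomal RNA, Etv2-negative replicate 1 or 2 or Etv2-positive replicate 1, and to 1 without Etv2-positive replicate 2 or 3. Fgf3, a ligand of the posterior embryo, rose from 58.8, 66.1 and 73.4 CPM to 104, 121 and 149 CPM (log2 change 0.91 ± 0.13, adjusted p = 3.37e-04), against the direction of Fgf8. Hedgehog genes gave 4 lower and none higher of 11 tested. Gli1 and Ptch1, both targets and parts of the pathway, fell from 14.6, 15.8 and 15.3 CPM to 9.58, 9.61 and 6.99 CPM (log2 change -0.81 ± 0.14, adjusted p = 0.00124) and from 159, 143 and 186 CPM to 102, 93.2 and 93 CPM (log2 change -0.76 ± 0.16, adjusted p = 0.0041), and Boc, a co-receptor, from 14.8, 15 and 15 CPM to 9.18, 8.79 and 5.58 CPM (log2 change -0.93 ± 0.14, adjusted p = 6.31e-04). Smo, the signal carrier, changed by 0.03 ± 0.05 with no call, and the ligand genes Shh and Dhh were too low to test. Of 16 retinoic acid genes, 4 fell and 1 rose, and beside Aldh1a2 the retinoic acid binding protein gene Crabp1 fell, from 28.8, 30.1 and 37.2 CPM to 11.3, 14.4 and 10.4 CPM (log2 change -1.41 ± 0.13, adjusted p = 2.87e-05).

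Among growth factor genes of the PDGF and IGF families, 4 of 17 rose and 2 fell, and 2 rose and 1 fell without both samples of high ribosomal RNA. Pdgfb, the ligand by which endothelium attracts mural cells, stood at 12.9, 10.9 and 9.18 CPM in the Etv2-negative samples and 37.8, 33.2 and 30.9 CPM in the Etv2-positive samples (log2 change 1.63 ± 0.14, adjusted p = 1.44e-05). Igfbp4, a binding protein of insulin-like growth factors, rose from 283, 283 and 291 CPM to 432, 461 and 432 CPM (log2 change 0.63 ± 0.05, adjusted p = 1.33e-05), with a spread within groups that was small beside the difference. Of 5 VEGF ligand genes, 1 was called. Vegfa stood at 48.5, 42.6 and 72 CPM in the Etv2-negative samples and 81.4, 82.3 and 114 CPM in the Etv2-positive samples (log2 change 0.77 ± 0.23, adjusted p = 0.0259), and its call ended without Etv2-negative replicate 1 (adjusted p = 0.0952), Etv2-negative replicate 2 (0.102) or Etv2-positive replicate 3 (0.103).

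Hox genes, which set position along the body axis, were low in both groups. Of 17 tested, 4 rose (Hoxb2, Hoxb4, Hoxb5 and Hoxb8), 2 fell (Hoxb1 and Hoxd1) and 11 were not called. None rose without both samples of high ribosomal RNA, 2 rose without Etv2-positive replicate 3 alone, and 7 rose with the replicate block. Hoxb5 went from 1.08, 0.878 and 1.84 CPM to 3.76, 3.56 and 8.94 CPM (log2 change 2.10 ± 0.47, adjusted p = 0.00648), a call that ended without both samples of high ribosomal RNA (adjusted p = 0.0856), and Etv2-positive replicate 3 was again the highest. Hoxb1, the first of the cluster to be expressed, fell from 21.4, 19.6 and 19.1 CPM to 8.37, 8.68 and 9.01 CPM (log2 change -1.20 ± 0.11, adjusted p = 1.99e-05).

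Metabolic and housekeeping lists came last. Of 25 genes of glycolysis and the hypoxia response, 13 fell, none was called higher and the median log2 change was -0.43. Etv2-negative replicate 3 was the highest of its group for 24 of the 25 genes and Etv2-positive replicate 3 for 20. The count of 13 was 4 without Etv2-negative replicate 3 and 8 without Etv2-negative replicate 1. Without Etv2-positive replicate 1 the count was 5, and without Etv2-positive replicate 2 it was 4. It was 16 without both samples of high ribosomal RNA, 17 with the replicate block and 19 with the block in the 6 samples alone. The glycolytic regulator Pfkfb3 fell from 42.6, 30.6 and 59.4 CPM to 17, 17.2 and 21.4 CPM (log2 change -1.25 ± 0.23, adjusted p = 0.00214), and Ndrg1, which responds to low oxygen, from 19.1, 15.5 and 36.8 CPM to 7, 4.52 and 6.65 CPM (log2 change -1.97 ± 0.37, adjusted p = 0.00244). The glucose transporter genes Slc2a1 and Slc2a3 were not called, with groups that overlapped at 427, 303 and 582 CPM against 377, 290 and 349 CPM for the first and overlapped at 462, 270 and 518 CPM against 359, 291 and 358 CPM for the second. Slc2a1 was called lower with the block in the 6 samples alone (adjusted p = 0.0352). Of the 13 messages encoded in mitochondrial DNA, 10 rose and none fell, with a median log2 change of 0.34. Leaving out 1 sample gave 6 to 11, with the 6 without Etv2-positive replicate 2. Mt-Co1, a subunit of complex IV, stood at 8880, 9950 and 8590 CPM in the Etv2-negative samples and 12100, 12700 and 12600 CPM in the Etv2-positive samples (log2 change 0.45 ± 0.07, adjusted p = 6.04e-04), and 48.7% of its windows occur in no other gene, since the nuclear genome carries copies. The share of all counts on mitochondrial genes was 2.23 to 2.60% in the Etv2-negative and 2.94 to 3.08% in the Etv2-positive samples. Of 30 cell cycle genes, 10 rose, 2 fell and 18 were not called. The mitotic kinases Aurka and Plk1 rose, from 82, 81.6 and 80.7 CPM to 114, 111 and 110 CPM (log2 change 0.46 ± 0.05, adjusted p = 7.34e-05) and from 134, 142 and 134 CPM to 178, 176 and 178 CPM (log2 change 0.38 ± 0.05, adjusted p = 2.49e-04), and the cell cycle inhibitor Cdkn1b fell from 78.2, 75.3 and 86.4 CPM to 54.7, 54.9 and 57.4 CPM (log2 change -0.52 ± 0.07, adjusted p = 3.42e-04). Mki67, a common mark of cycling cells, was listed at 671, 580 and 618 CPM against 715, 633 and 713 CPM (adjusted p = 0.289, and 0.0155 with the block in the 6 samples alone). Of 21 immediate early and stress genes, 7 rose and none fell, and 5 rose without both samples of high ribosomal RNA. Gadd45g rose from 9.75, 15 and 15.9 CPM to 32.3, 39.8 and 53.2 CPM (log2 change 1.62 ± 0.23, adjusted p = 3.84e-04), while for Jun, induced by cell handling, the samples overlapped at 47.5, 89 and 82.2 CPM against 53.5, 79.7 and 92.8 CPM (adjusted p = 0.916).

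**Figure D4:**
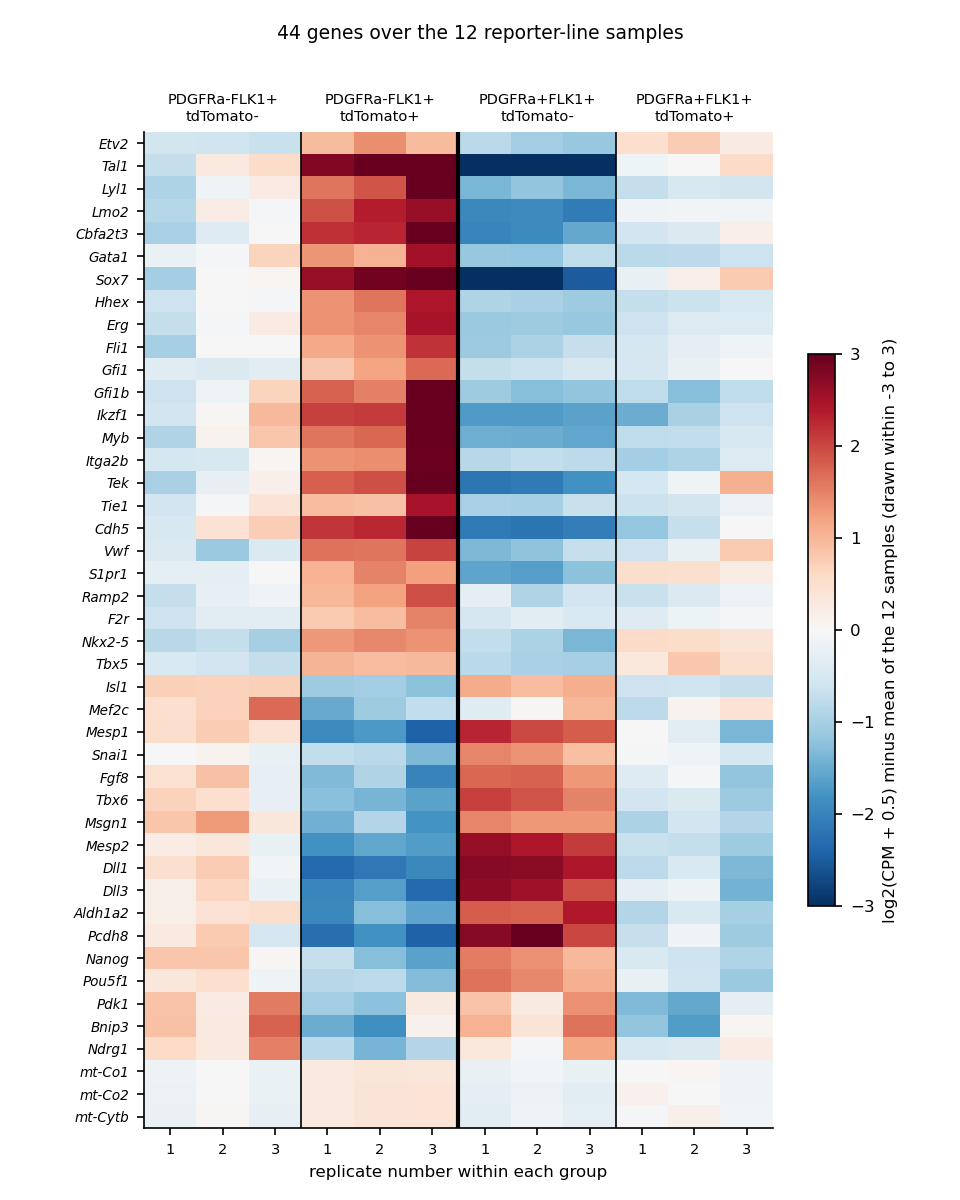
Each row is 1 of 44 genes and each column 1 of the 12 reporter-line samples, with colour giving log2(CPM + 0.5) minus the mean of the row over the 12 samples, drawn within -3 to 3. From the left the columns are PDGFRalpha-FLK1+ Etv2-negative and Etv2-positive and then PDGFRalpha+FLK1+ Etv2-negative and Etv2-positive cells. The blood and endothelial genes in the upper rows are highest in the PDGFRalpha-FLK1+ Etv2-positive samples, for most of them in replicate 3, and the paraxial genes are highest in the PDGFRalpha+FLK1+ Etv2-negative samples.

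Whether the reporter difference depended on the gate was tested with an interaction term in the same fit, PDGFRalpha-FLK1+ minus PDGFRalpha+FLK1+. In the PDGFRalpha+FLK1+ gate 5435 genes (30.7%) were called for the reporter. The difference between the gates was called for 702 genes (3.97%), 269 with a more positive change in PDGFRalpha-FLK1+ cells and 433 with a more negative one. Of the 4504 genes called in PDGFRalpha-FLK1+ cells, 307 were among the 702, and 44 genes were called in opposite directions in the gates. The size of this set was unstable. It was 1537 with the replicate block and 119 without both samples of high ribosomal RNA. In the PDGFRalpha-FLK1+ gate it was 143, 367 and 162 without Etv2-negative replicate 1, 2 or 3 and 188 and 190 without Etv2-positive replicate 2 or 3. In the other gate it was 114, 50 and 1268 without Etv2-negative replicate 1, 2 or 3 and 211 without Etv2-positive replicate 3. The genes described next kept their call in every alternative fit. Inka1, an inhibitor of the kinase PAK4, was higher in Etv2-positive cells of the PDGFRalpha-FLK1+ gate (4.3, 6.89 and 6.92 CPM against 13.1, 15.7 and 27.1 CPM, log2 change 1.62), and its change in the other gate was -0.59. The difference between the gates was 2.21 ± 0.36 (adjusted p = 0.0132). Col14a1 and Fgf3, both described above as higher, changed by 0.09 and -0.22 in PDGFRalpha+FLK1+ cells, with differences of 1.05 ± 0.18 and 1.13 ± 0.18 (adjusted p = 0.0136 and 0.013). For Foxc2, a forkhead factor of paraxial and vascular mesoderm, the difference was 3.09 ± 0.31 (adjusted p = 0.00362), with a decrease of -2.64 in the other gate. Tnnc1 rose in both gates, by 0.83 here and 2.70 in the other, with a difference of -1.87 ± 0.29 (adjusted p = 0.013). Ripor3 stood at 27.8, 22.3 and 31.1 CPM against 30.4, 27.5 and 24.6 CPM here, with no change called, and rose by 2.50 in PDGFRalpha+FLK1+ cells (difference -2.48 ± 0.34, adjusted p = 0.0106). Spin2c changed by -0.68 here (adjusted p = 0.0756, and 0.0377 with the replicate block) and by 1.87 in the other gate, a difference of -2.54 ± 0.38 (adjusted p = 0.0122). For Tal1, Sox7, Lmo2 and Cbfa2t3 it was not called, at -0.98 ± 0.60, -0.87 ± 0.63, 0.48 ± 0.34 and 1.34 ± 0.46, which does not show that the gates are alike. In Etv2-positive cells of the PDGFRalpha+FLK1+ gate, group means were 15.7 CPM for Tal1, 7.74 for Sox7, 13.3 for Lmo2 and 9.15 for Cbfa2t3, below every Etv2-positive sample of the PDGFRalpha-FLK1+ gate.

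The second set offers the same gate with Etv2 induced by doxycycline, in samples that are not shared with the reporter line. There 8274 of 16288 genes tested (50.8%) were called between iEtv2 and wildtype PDGFRalpha-FLK1+ cells, 4296 higher (26.4%) and 3978 lower (24.4%). Of 2158 genes higher in Etv2-positive cells and tested in both sets, 24.7% were higher with iEtv2 and 42.4% lower, beside 25% higher and 25.7% lower over the 15354 genes tested in both. In the other direction, 13.9% of 3845 genes higher with iEtv2 were higher with the reporter. Of 2028 genes lower in Etv2-positive cells, 22.6% were lower with iEtv2 and 36.7% higher, and 11.6% of 3939 genes lower with iEtv2 were lower with the reporter. Of 88 genes at least 4-fold higher in Etv2-positive cells, 51 were higher, 14 lower and 23 not called with iEtv2. Of 82 genes at least 4-fold lower, 27 were lower, 20 higher and 35 not called.

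**Figure D5:**
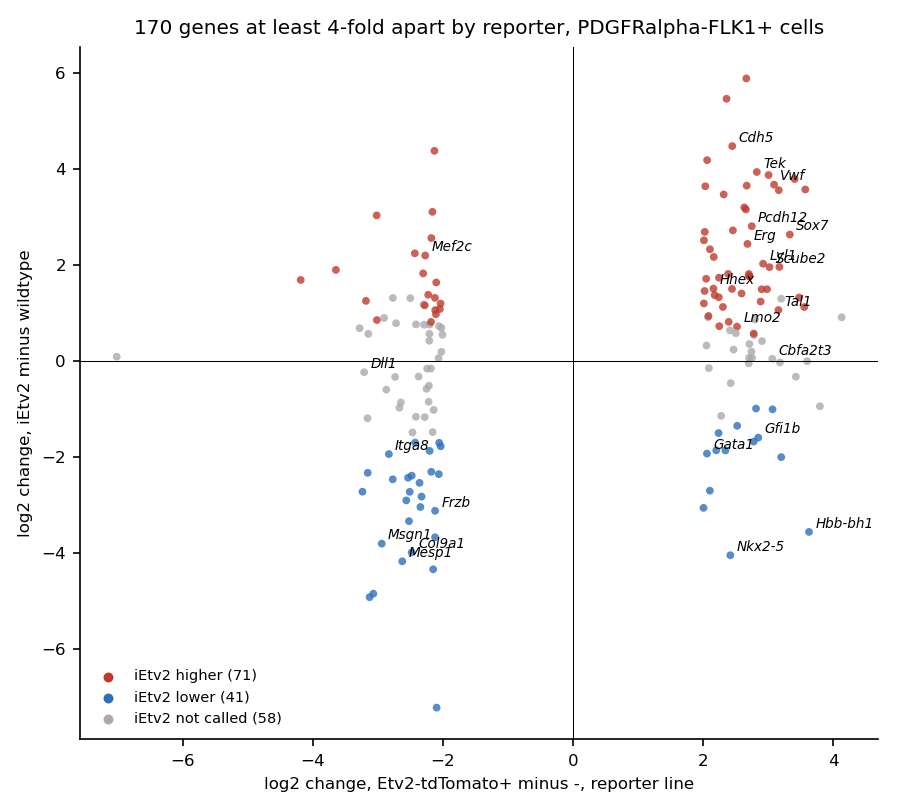
Each point is 1 of the 170 genes called at least 4-fold apart by the reporter and tested in both sets, with the reporter log2 change on the x axis and the iEtv2 minus wildtype log2 change on the y axis, both in PDGFRalpha-FLK1+ cells. Colour gives the iEtv2 call, with 71 higher, 41 lower and 58 not called. Endothelial genes such as Cdh5 and Tek lie high at the right, and Nkx2-5 and Hbb-bh1 low at the right.

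The lists are set side by side here, with no test of the difference between sets. Of the 21 endothelial receptors, tested in both sets, 15 were higher and 3 lower with iEtv2, and of the 19 junction and surface genes 16 and 2. Tek, Cdh5 and Vwf had iEtv2 log2 changes of 3.94 ± 0.22, 4.47 ± 0.25 and 3.67 ± 0.39. For the blood transcription factors 12 of the 13 were tested with iEtv2, without Klf1, and the counts were 2 higher and 4 lower. Gata1 and Gfi1b, higher in reporter-positive cells, were lower with iEtv2, at -1.94 ± 0.50 and -1.60 ± 0.45, and Runx1 was lower too (-1.91 ± 0.12). Nkx2-5 and Tbx5 also had opposite signs, with iEtv2 log2 changes of -4.05 ± 0.32 and -1.79 ± 0.30. Cbfa2t3 and Ikzf1 were not called with iEtv2 (0.04 ± 0.19 and 0.06 ± 0.30). Mesp1, Msgn1 and Tbx6 were lower in both sets, with iEtv2 values of -4.18 ± 0.54, -3.81 ± 0.63 and -1.88 ± 0.29. For Dll1, lower with the reporter, the iEtv2 value was -0.24 ± 0.20, not called. The lines and the control cells of the sets differ and their counting may, since the 9 samples of the second set had 0.549 to 0.636% of their counts on pseudogenes, below the share given above for the reporter line. The size of a change was not compared between them.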

How the data were processed

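Total RNA of sorted cells was sequenced from TruSeq Stranded Total RNA libraries, per the labels' protocols. The authors deposited 1 table of whole-number counts per gene for each sample, counted with featureCounts on mm10, per the submitters' processing notes. The 9 files of the second set carry summary entries of the kind that STAR writes, per the file headers, so their counting may differ, and they were fitted apart. The strand setting is not given in the sources used here, so reads of genes that overlap on opposite strands cannot be told apart. All 21 columns were used and 0 left out. Of 55487 gene IDs, 55227 were named from GENCODE M21.

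The 12 reporter-line samples were fitted together with a term for each of 4 groups (edgeR 4.0.16, R 4.3.3, TMM, default filter on low counts, quasi-likelihood test, two-sided). P-values were Benjamini-Hochberg adjusted over all genes tested, and a gene was called below 0.05. The standard error is the log2 change divided by the square root of F. CPM use TMM-scaled library sizes. The method was tested on simulated data. The reporter comparison of the PDGFRalpha-FLK1+ gate, its difference from the PDGFRalpha+FLK1+ gate, and iEtv2 against wildtype made 3 comparisons. Totals of 25045553 to 32777143 counts put 1 count near 0.03 to 0.04 CPM, so values under about 0.1 CPM rest on a few reads. Alternatives were DESeq2 1.42.0, other scalings and filters, a replicate block, the 6 samples alone, a 2-fold minimum, removal of mitochondrial and ribosomal RNA genes, and samples left out.

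Replicate numbers are shared between groups in the labels. Deviations from group means correlated at 0.268, 0.143 and 0.25 between Etv2-negative and Etv2-positive samples of the same number. Between samples of different numbers the correlations were -0.235 to 0.00657. The main fit held no replicate term, so its p-values and calls ignore any pairing. Pairing by number was fitted only as an alternative, the replicate block, which called 5445 genes against 4504. Members and gene lists were chosen with earlier results of these data known. Named genes are Etv2, Kdr, Pdgfra and T, the 15 largest increases and decreases (called, mean of at least 5 CPM, groups apart), up to 5 called, 2 opposing and 3 uncalled members of each list, and the largest differences between the gates. Hoxb4, Hoxb8, Hoxd1, Gata2, Runx1 and genes named only as untested or at 0 were added after their values were seen, and a gene that the rule would name is not reported here. Uniqueness of a gene is the share of 50-base windows of its longest transcript found in no other gene.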

Additional observations from a re-analysis of the deposited data

Results flagged for a closer look

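For 27 genes named in the text the reporter difference itself differed between the gates by the interaction test, given as the log2 change in PDGFRalpha-FLK1+ minus that in PDGFRalpha+FLK1+ cells (edgeR quasi-likelihood test, adjusted p below 0.05). Those that kept the call in every fit were Foxc2 (3.09), Inka1 (2.21), Fgf3 (1.13), Col14a1 (1.05), Tnnc1 (-1.87), Ripor3 (-2.48) and Spin2c (-2.54). F2r (1.29, adjusted p = 0.0137) and Fzd10 (1.67, adjusted p = 0.0144) lost it without PDGFRalpha+FLK1+ Etv2-negative replicate 2 (adjusted p = 0.0534 and 0.0546). The remaining calls ended in 2 or more alternative fits. More positive in the PDGFRalpha-FLK1+ gate were Itga2b (2.66), Scube2 (1.87), Hhex (1.73), Ramp2 (1.68), Gata2 (1.12), Plxnd1 (0.70), Plxnc1 (2.17), Nrarp (1.09), Hoxb1 (0.57), Plk1 (0.32) and Aurka (0.30). More negative were Hoxd1 (-1.53), Efna1 (-1.36), Igfbp3 (-1.29), Podxl (-1.16), Pdgfb (-1.11), Foxf1 (-1.02) and Msx1 (-0.81).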

How the results depend on the processing

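Of the 4504 reporter calls in PDGFRalpha-FLK1+ cells, 4231 were among the 4532 made by DESeq2. With a 2-fold minimum 905 were left (322 higher, 583 lower). Without both samples of high ribosomal RNA 2459 were called (1286 higher, 1173 lower), 2310 of them among the 4504. Leaving out 1 sample gave 3232 to 3608. With the replicate block 5445 were called, and 6832 (3501 higher, 3331 lower) with the block in the 6 samples alone. For the difference between the gates the counts were 1237 with DESeq2 (497 higher, 740 lower), 1740 without a filter (605 and 1135), 1537 with the replicate block (618 and 919), 119 without both samples of high ribosomal RNA (44 and 75) and 269 with a 2-fold minimum (86 and 183). Leaving out 1 sample moved it from 50 to 1268, with 25 to 402 higher and 25 to 866 lower. The cause was not tested. For iEtv2 a 2-fold minimum gave 3148 (2119 higher, 1029 lower), and the other alternatives stayed within 1.5 times the count. No scaling moved the median of all genes by more than 0.1. Over the genes named in the text, 3589 values were refitted: no called value changed direction, 208 lost the call (a 2-fold minimum counted as an alternative) and 55 gained one. The replicate block, over the 12 samples or in the 6 alone, changed no call of a named gene in PDGFRalpha-FLK1+ cells other than those given with the results. List counts of 1 or 2 genes could move in any alternative, some by more than 2. With the block in the 6 samples alone, the PDGF and IGF genes called lower went from 2 to 6. In that fit the FGF genes called higher went from 1 to 4 and the cell cycle genes called lower from 2 to 5. The longer motif ACCGGAAGT was in 1.80% of tested genes and in 0 of 224 genes at least 2-fold higher. Depth limits genes under about 0.1 CPM, which rest on few reads.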

Other observations

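Genes of nitric oxide and cyclic GMP signaling, by which endothelium relaxes vessel walls, were mostly not called. Of 13 tested, 2 rose and none fell. Nos3, the endothelial nitric oxide synthase, stood at 0.538, 0.585 and 1.26 CPM in the Etv2-negative samples and 1.99, 2.15 and 4.76 CPM in the Etv2-positive samples (log2 change 1.90 ± 0.37, adjusted p = 0.00312), and the groups did not overlap. Of its windows, 79.7% occur in no other gene. Of the 8 mesodermal progenitor markers of the FLK1+ gate, 1 rose (Etv2) and 3 fell, and 5 fell with the replicate block. Their summed level was 1790 to 1950 CPM in the Etv2-negative and 1410 to 1750 CPM in the Etv2-positive samples.

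Among members of the lists not described above, Arap3, a GTPase regulator of vessel growth, was measured at 13.9, 14.8 and 14.6 CPM in the Etv2-negative samples and 29.2, 34 and 49.1 CPM in the Etv2-positive samples (log2 change 1.38 ± 0.19, adjusted p = 3.58e-04). Esam, an adhesion protein of endothelial junctions, stood at 0.466, 1.14 and 1.19 CPM in the Etv2-negative samples and 1.84, 2.86 and 4.15 CPM in the Etv2-positive samples (log2 change 1.65 ± 0.37, adjusted p = 0.00676). Pcdh17, a protocadherin, was at 3.66, 4.68 and 2.69 CPM in the Etv2-negative samples and 0.59, 1.22 and 0.925 CPM in the Etv2-positive samples (log2 change -2.01 ± 0.29, adjusted p = 4.27e-04). For these 3 genes the groups did not overlap, as for 98.2% of all called genes.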
